A study of Mus musculus with 6 samples.

Results

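A group of 40 genes that carry fatty acids into heart muscle cells and burn them in mitochondria were followed in the hearts of Elac2 knockout and control mice. They were chosen by name from the gene names in the authors' deposited results table, with earlier results of these data known. All 40 were found among the 51888 gene features of the count tables, and all 40 passed the filter on low counts, as did 14302 genes in all. By role they were 10 genes of uptake and storage, 5 of acyl-CoA activation, 5 of the carnitine shuttle, 12 of beta-oxidation proper, 3 of electron transfer and 5 that control the pathway or cleave acyl-CoA.

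The knockout mice (L/L, cre; n = 3) carried a loxP-flanked Elac2 allele and cre driven by the muscle creatine kinase promoter, which is active in heart and skeletal muscle cells. The control mice (L/L; n = 3), named Elac2 +/+ in the genotype field, carried no cre. Elac2 encodes RNase Z, the enzyme that cuts the trailing end off nuclear and mitochondrial tRNA precursors. Both groups were on the C57BL/6 background. No group carried cre without the floxed allele, so an effect of cre itself and of the loss of Elac2 cannot be told apart. RNA came from total hearts, and the labels give no age for the mice. The series' design text names separate mice, so the p-values measure the spread between 3 mice a group.

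The libraries held 9850100 to 14461110 counts in the L/L, cre hearts and 12057962 to 14276410 in the L/L hearts. Mitochondrial-encoded genes took 33.3% to 36.7% of them in the L/L, cre hearts and 49.3% to 61.1% in the L/L hearts. Levels are therefore given as CPM, counts scaled to a common library size by TMM, which sets most genes level, and a gene was called at an adjusted p under 0.05 in edgeR's quasi-likelihood test. Elac2 was at 5.36, 5.63 and 6.52 CPM in the L/L, cre hearts and at 15.0, 14.0 and 13.0 CPM in the L/L hearts (log2 fold change -1.27, adjusted p = 2.12e-04). Its reads come from all exons and from every cell type of the heart, with or without cre.

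Fatty acids are the main fuel of the adult heart. They reach the muscle cell from circulating lipoproteins or albumin, are tied to coenzyme A, cross into mitochondria on carnitine, and are shortened by repeated rounds of oxidation whose electrons pass to the respiratory chain through flavoproteins. Many genes of the pathway are known targets of the nuclear receptor PPARα, which binds DNA with its partner RXR at paired copies of the motif AGGTCA.

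The proximal promoters show how common that motif is among the genes. In windows from 250 bases before to 50 bases after the RefSeq transcription start (GRCm38.p6), 33 of the 40 genes had an entry, and 8 of the 33 (24.2%) held AGGTCA or its reverse complement TGACCT at least once. Of all 27025 genes with an entry, 4900 (18.1%) did. The 8 were Cd36, Plin5, Acsl6, Cpt1a, Acadvl, Acadm, Echs1 and Ucp3. The motif stood in 6 of 24 called lower, in 2 of 7 not called and in 0 of 2 called higher. The 250 bases upstream of 4 of them are printed 5′ to 3′ along the gene, with each copy in capitals. Ucp3 (chr7:100472741-100472990, plus strand), Acsl6 (chr11:54303574-54303823, plus strand) and Acadm (chr3:153944644-153944893, minus strand) were lower in the L/L, cre hearts, while Cpt1a (chr19:3323051-3323300, plus strand) holds the same motif and was not called. Ucp3 carries 2 copies in the same orientation and Acsl6 carries 2 in the opposite one. A match to these letters is a description of the sequence and not a bound site.
Ucp3: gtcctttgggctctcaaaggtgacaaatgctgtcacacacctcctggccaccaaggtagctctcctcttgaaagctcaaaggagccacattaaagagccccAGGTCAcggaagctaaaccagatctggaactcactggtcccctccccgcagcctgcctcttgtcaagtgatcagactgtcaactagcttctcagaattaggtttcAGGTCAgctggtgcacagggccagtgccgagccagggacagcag
Acsl6: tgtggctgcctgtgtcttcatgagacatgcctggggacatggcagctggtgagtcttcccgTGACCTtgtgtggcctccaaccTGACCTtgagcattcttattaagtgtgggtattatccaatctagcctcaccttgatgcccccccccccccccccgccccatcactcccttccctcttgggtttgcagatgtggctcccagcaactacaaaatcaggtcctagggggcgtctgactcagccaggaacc
Acadm: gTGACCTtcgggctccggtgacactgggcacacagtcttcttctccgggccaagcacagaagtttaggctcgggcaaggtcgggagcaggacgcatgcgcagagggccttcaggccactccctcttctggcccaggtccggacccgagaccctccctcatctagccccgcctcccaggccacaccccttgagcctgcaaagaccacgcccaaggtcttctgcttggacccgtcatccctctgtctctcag
Cpt1a: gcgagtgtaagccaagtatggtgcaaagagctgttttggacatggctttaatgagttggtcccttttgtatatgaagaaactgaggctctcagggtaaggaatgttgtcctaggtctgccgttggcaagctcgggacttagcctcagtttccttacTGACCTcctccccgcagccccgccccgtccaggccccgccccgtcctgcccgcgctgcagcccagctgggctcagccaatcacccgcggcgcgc

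Most of the 40 genes were lower in the L/L, cre hearts. Of the 40, 29 fell (72.5%, against 17.8% of all tested genes), 2 rose (Acsl5 and Acot2, against 18.7% of all tested genes) and 9 were not called. In either direction 36.5% of all tested genes were called. The median log2 fold change of the 40 was -0.94, against -0.01 over all tested genes. Every L/L, cre heart was below every L/L heart in 31 of the 40 (24.5% of all tested genes), above in 2 (26.2%), and the groups overlapped in 7. With library size alone as the scale, which counts the mitochondrial reads, the median of all genes moved to 0.68 and that of the 40 to -0.26. On that scale 7 were called lower and 5 higher, against 3.86% lower and 56.6% higher of all tested genes. The sign turned for Pnpla2, Slc22a5, Echs1, Hadha, Decr1 and Mlycd among the called genes and for Cd36, Fabp3, Acsl4, Cpt1a, Cpt1b and Eci2 among the others. Another scale, without TMM, is the total of the counts that were not mitochondrial-encoded. Of that total the 40 genes together took 0.809%, 1.22% and 1.23% in the L/L, cre hearts and 1.90%, 2.02% and 1.83% in the L/L hearts. As a share of all counts they took 0.539%, 0.797% and 0.781% in the L/L, cre hearts and 0.963%, 0.786% and 0.760% in the L/L hearts, where the groups overlapped. In RNA from whole hearts, fewer muscle cells and less of an mRNA per muscle cell cannot be told apart.

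**Figure D1:**
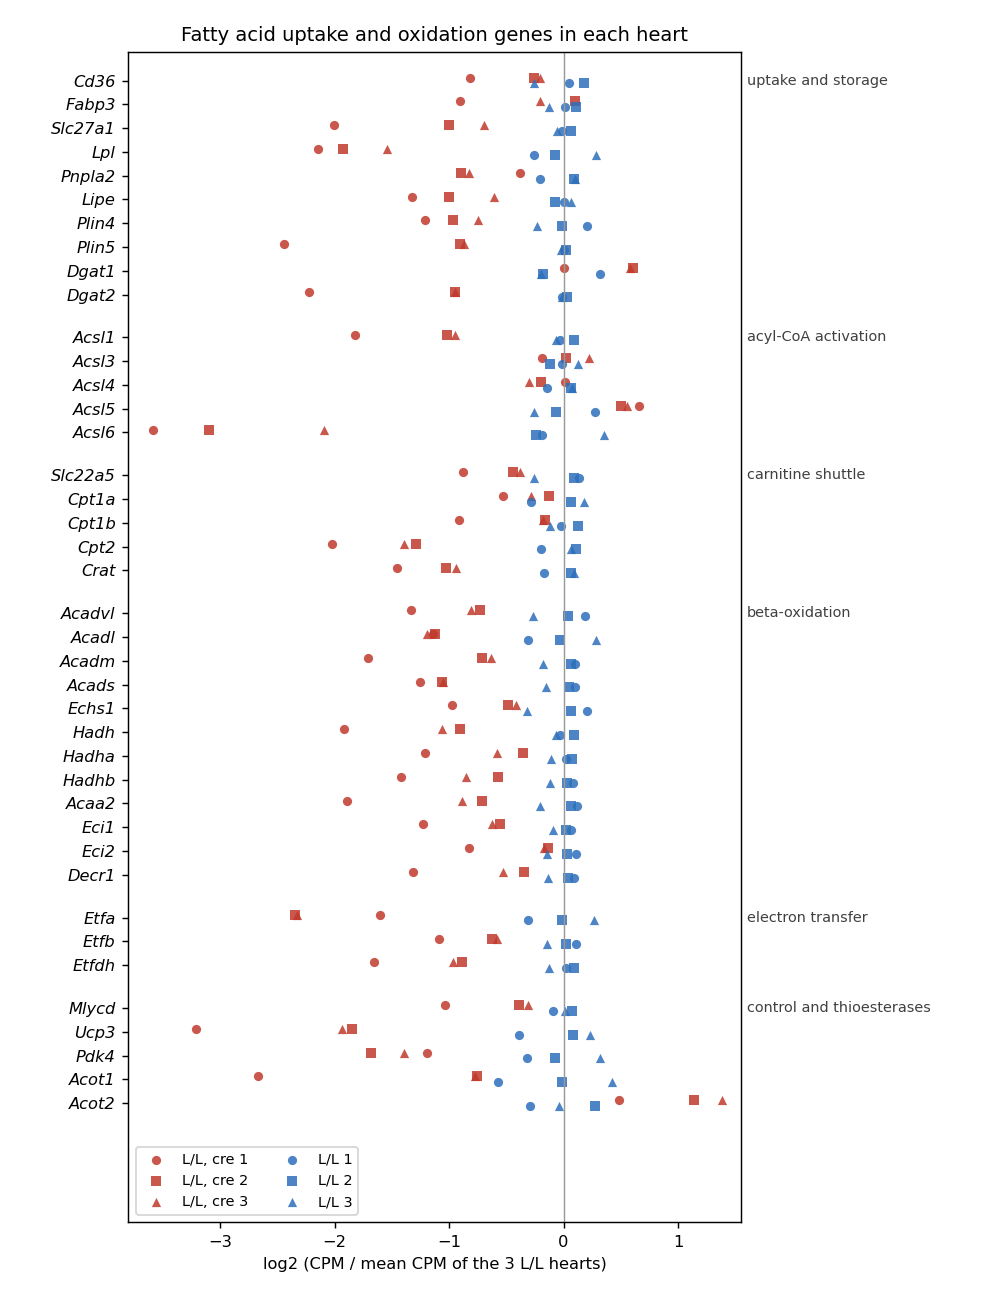
Level of each gene in each heart as log2 of its CPM over the mean CPM of the 3 L/L hearts (x axis), with L/L, cre hearts in red above L/L hearts in blue and 1 marker shape per replicate number, which pairs no mice. Most red points lie left of the blue ones, Acsl5 and Acot2 lie to the right, and L/L, cre heart 1 is the lowest of its group in 34 of 40 genes.

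Genes that bring fatty acids to the muscle cell and hold them there were lower in 7 of 10 cases, with a median log2 fold change of -0.96. The exceptions were the highly expressed carriers Cd36 and Fabp3 and the triglyceride-making Dgat1. Lpl, the lipase that frees fatty acids from lipoproteins at the vessel wall, had 417, 483 and 633 CPM in the L/L, cre hearts and 1540, 1749 and 2235 CPM in the L/L hearts. All 3 L/L, cre hearts were far below the lowest L/L heart, and the group mean stood at 27.8% of the L/L mean (log2 fold change -1.85, SE 0.21, adjusted p = 1.79e-04; chr8:68880491-68907448 in GRCm38).

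Cd36, the main fatty acid translocase of the muscle membrane, was at 559, 824 and 854 CPM in the L/L, cre hearts and at 1023, 1115 and 825 CPM in the L/L hearts. Fabp3, the fatty acid binding protein of heart cytosol, was at 531, 1067 and 861 CPM in the L/L, cre hearts and at 1002, 1073 and 909 CPM in the L/L hearts. In both genes L/L, cre heart 1 was the lowest of all 6, and the other hearts of the 2 groups intermingled. Neither was called, with log2 fold changes of -0.41 (SE 0.20, adjusted p = 0.132) for Cd36 and -0.28 (SE 0.23, adjusted p = 0.372) for Fabp3. Slc27a1, the transport protein FATP1, differed from these carriers, with 21.3, 42.7 and 53.0 CPM in the L/L, cre hearts against 84.7, 89.6 and 82.5 CPM in the L/L hearts (log2 fold change -1.14, SE 0.26, adjusted p = 7.75e-03). Its highest L/L, cre heart was well below its lowest L/L heart.

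Among the lipid droplet genes, both lipases and both perilipins fell. Pnpla2, which encodes the triglyceride lipase ATGL, had 50.7, 35.5 and 37.3 CPM in the L/L, cre hearts and 57.1, 70.2 and 70.7 CPM in the L/L hearts (log2 fold change -0.68, adjusted p = 7.97e-03). Lipe, the hormone-sensitive lipase, had a log2 fold change of -0.95 (adjusted p = 2.15e-03) and the droplet coat gene Plin4 of -0.96 (adjusted p = 1.42e-03). Plin5, the perilipin that ties droplets to mitochondria in oxidative muscle, had 12.4, 36.1 and 36.9 CPM in the L/L, cre hearts and 67.6, 68.5 and 66.3 CPM in the L/L hearts. The 3 L/L hearts lay within a narrow band, and L/L, cre heart 1 was far below its own group (log2 fold change -1.25, SE 0.32, adjusted p = 0.0129, and 0.0566 with a robust fit).

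The 2 enzymes that complete triglyceride synthesis parted. Dgat2 had 25.4, 61.4 and 61.5 CPM in the L/L, cre hearts and 117, 121 and 117 CPM in the L/L hearts (log2 fold change -1.26, SE 0.28, adjusted p = 5.95e-03). Dgat1 had 9.45, 14.4 and 14.1 CPM in the L/L, cre hearts and 11.7, 8.33 and 8.25 CPM in the L/L hearts, so the groups overlapped, and it was not called (log2 fold change 0.40, SE 0.21, adjusted p = 0.158). Without L/L, cre heart 1, Dgat1 was called higher, at 0.58 (adjusted p = 0.0215). Markers of fat cells, which also express Lpl, Lipe, Pnpla2, Plin4 and Dgat2, did not follow the groups. The 8 markers summed to 4.19, 6.68 and 84.1 CPM in the L/L, cre hearts and to 56.3, 9.33 and 7.32 CPM in the L/L hearts, 0 of the 5 tested were called, and Lep was at 0 in 3 hearts and Adrb3 in 2. Without L/L, cre heart 3 and L/L heart 1, the 2 hearts where they were high, 7 of the 10 uptake and storage genes were again called lower and the median was -1.04. In the hearts left, the marker sums were lower in the L/L, cre hearts (4.19 and 6.68 CPM) than in the L/L hearts (9.33 and 7.32 CPM). The median log2 fold change of the 4 markers tested there was -0.77, with 0 called. The part of fat cells in the fall of these genes was not tested.

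**Figure D2:**
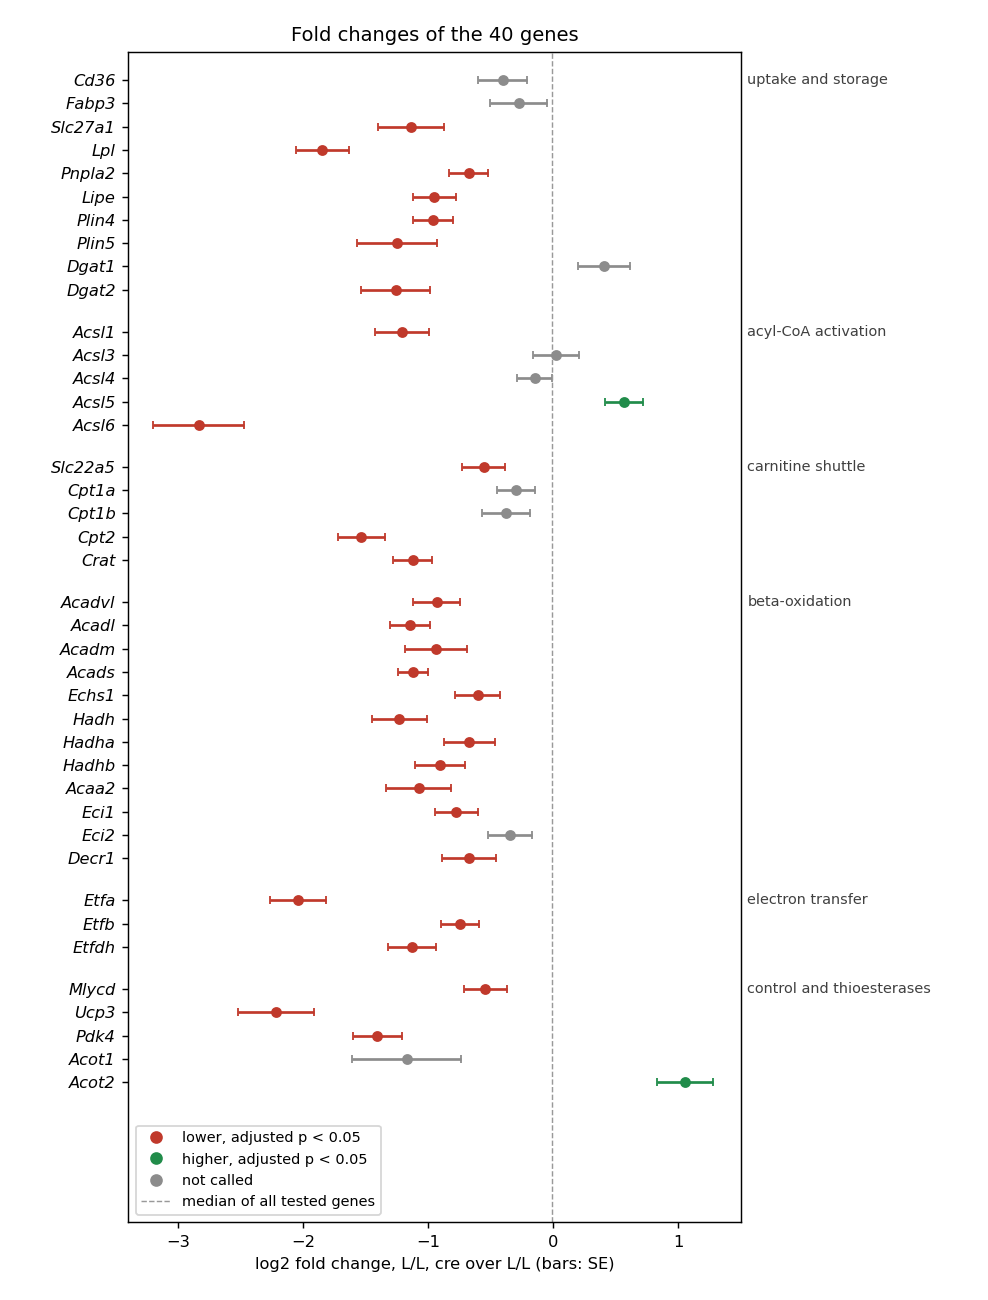
Log2 fold change of each of the 40 genes, L/L, cre over L/L (x axis; bars are ± 1 SE), by role, with red for called lower, green for called higher and grey for not called at an adjusted p under 0.05. The 29 red points lie between -2.84 and -0.54, and the dashed line is the median of all tested genes, -0.01. On the scale of library size alone all points move to the right and 12 of the genes turn sign.

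The 5 long-chain acyl-CoA synthetases, which tie fatty acids to coenzyme A, did not move together. Of the 5, 2 fell, 1 rose and 2 were not called, with a median of -0.15 (0.55 on the scale of library size alone). The median was -0.24 without L/L, cre heart 1 and -0.08 without L/L, cre heart 3. Acsl1, the main form in heart, fell, with 187, 327 and 344 CPM in the L/L, cre hearts and 649, 703 and 633 CPM in the L/L hearts (log2 fold change -1.21, SE 0.22, adjusted p = 2.05e-03). Acsl6, a form best known from brain, had the lowest fold change of the 40, with 0.371, 0.523 and 1.05 CPM in the L/L, cre hearts and 3.91, 3.78 and 5.69 CPM in the L/L hearts (log2 fold change -2.84, SE 0.36, adjusted p = 3.46e-04). It rests on few reads, 7, 9 and 13 counts in the L/L, cre hearts and 52, 34 and 49 in the L/L hearts, but the groups were far apart.

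Acsl5 rose, with 26.3, 23.5 and 24.4 CPM in the L/L, cre hearts and 20.1, 15.9 and 13.9 CPM in the L/L hearts (log2 fold change 0.56, SE 0.15, adjusted p = 0.0151). The call was lost without L/L heart 2 (0.54, adjusted p = 0.0643) and without L/L heart 3 (0.46, adjusted p = 0.0551). Its exons share 404 bases with Zdhhc6 on the other strand, which averaged 17.7 CPM in the L/L, cre hearts and 13.4 CPM in the L/L hearts, and the sources used here do not say if reads were counted by strand. Acsl3 (log2 fold change 0.02, adjusted p = 0.942) and Acsl4 (-0.15, adjusted p = 0.416) were not called and their groups overlapped; on the scale of library size alone Acsl4 was called higher, at 0.55.

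The balance of the family can be read within each heart, free of scaling. Per kilobase of exon, Acsl1 made up 64.2%, 77.4% and 77.9% of the family's reads in the L/L, cre hearts and 87.5%, 88.9% and 87.8% in the L/L hearts. Acsl5 made up 19.4%, 12.0% and 11.9% in the L/L, cre hearts and 5.84%, 4.33% and 4.17% in the L/L hearts. In every heart Acsl1 was still the most abundant of the 5 per length.

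The carnitine shuttle was lower at its inner step and not called at its outer one. Of its 5 genes 3 fell, with a median log2 fold change of -0.56 that turned to 0.12 on the scale of library size alone. Cpt1b and Cpt1a, the muscle and liver forms of the transferase on the outer mitochondrial membrane, were not called. Cpt1b had 23.8, 40.2 and 39.7 CPM in the L/L, cre hearts and 44.1, 49.1 and 41.5 CPM in the L/L hearts, with every L/L, cre heart below every L/L heart but by a narrow margin (log2 fold change -0.38, SE 0.19, adjusted p = 0.14). A transcript of Gm44502 is 100% identical to Cpt1b over 1841 bases, and no level of Gm44502 is given here. How reads shared with it were counted was not tested, which also bears on the ratio of Cpt1a to Cpt1b below. Cpt1a had 35.8, 47.1 and 42.35 CPM in the L/L, cre hearts and 42.28, 53.9 and 58.5 CPM in the L/L hearts, which overlap (log2 fold change -0.30, SE 0.15, adjusted p = 0.143). Cpt2, the transferase of the inner membrane, had 21.2, 35.3 and 33.0 CPM in the L/L, cre hearts and 75.6, 93.5 and 90.4 CPM in the L/L hearts. The highest L/L, cre heart lay well under the lowest L/L heart, and the mean was 34.5% of the L/L mean (log2 fold change -1.54, SE 0.19, adjusted p = 2.52e-04; chr4:107903981-107923610).

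Crat, which passes acetyl groups between coenzyme A and carnitine, fell too, with 91.1, 123 and 130 CPM in the L/L, cre hearts and 222, 261 and 265 CPM in the L/L hearts (log2 fold change -1.12, SE 0.16, adjusted p = 5.43e-04). Slc22a5, the carnitine importer OCTN2, had 9.02, 12.2 and 12.7 CPM in the L/L, cre hearts and 18.2, 17.7 and 13.8 CPM in the L/L hearts (log2 fold change -0.56, SE 0.17, adjusted p = 0.0301). This was a weak call. It was lost without L/L heart 1 (-0.48, adjusted p = 0.104), L/L heart 2 (-0.51, adjusted p = 0.101) or L/L, cre heart 2 (-0.62, adjusted p = 0.0565), and in the authors' deposited table its adjusted p is 0.0533.

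Of the 12 beta-oxidation genes 11 fell, with a median log2 fold change of -0.92 and a range of -1.23 to -0.35. On the scale of library size alone 1 of the 12 was called lower, the median was -0.24, and Echs1, Hadha, Decr1 and Eci2 turned sign. Each cycle begins with an acyl-CoA dehydrogenase suited to the chain length. Acadvl, for very long chains, had 202, 307 and 292 CPM in the L/L, cre hearts and 581, 525 and 424 CPM in the L/L hearts (log2 fold change -0.93, adjusted p = 3.95e-03). Acadl, for long chains, had 138, 140 and 133 CPM in the L/L, cre hearts and 244, 297 and 368 CPM in the L/L hearts (log2 fold change -1.15, SE 0.16, adjusted p = 4.83e-04). Acadm, for medium chains, had 131, 262 and 277 CPM in the L/L, cre hearts and 460, 449 and 378 CPM in the L/L hearts (log2 fold change -0.94, SE 0.25, adjusted p = 0.0144). The groups did not overlap in any of the 3, and Acadl was the only one in which the L/L, cre hearts lay within a few CPM of each other. Acads, for short chains, had 27.5, 31.5 and 31.6 CPM in the L/L, cre hearts and 70.4, 67.7 and 58.9 CPM in the L/L hearts, and its adjusted p of 1.20e-04 was the smallest of the 40 (log2 fold change -1.12, SE 0.12).

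Hadha and Hadhb encode the paired subunits of the trifunctional protein, which carries out the later steps on long chains, and they lie next to each other on chromosome 5 on opposite strands (chr5:30118304-30155162 and chr5:30155248-30184593). Hadha had 305, 552 and 471 CPM in the L/L, cre hearts and 717, 744 and 656 CPM in the L/L hearts (log2 fold change -0.67, SE 0.20, adjusted p = 0.0277). Hadhb had 198, 354 and 292 CPM in the L/L, cre hearts and 558, 541 and 486 CPM in the L/L hearts (log2 fold change -0.91, SE 0.20, adjusted p = 6.03e-03). In both genes the lowest L/L, cre heart was heart 1 and the highest was heart 2. A processed pseudogene of Hadhb, Gm13910, is 99.8% identical to it over 1428 bases and can take its reads. Its counts were 31.9% to 35.2% of those of Hadhb in the L/L, cre hearts and 32.0% to 34.0% in the L/L hearts. The sum of the pair was 375 ± 106 CPM in the L/L, cre hearts and 703 ± 54.7 CPM in the L/L hearts (SD, n = 3 each).

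The enzymes for shorter chains fell as well. Hadh, the dehydrogenase for medium and short chains, had the lowest fold change of the 12, with 55.7, 112 and 100 CPM in the L/L, cre hearts and 206, 223 and 201 CPM in the L/L hearts (log2 fold change -1.23, SE 0.22, adjusted p = 2.25e-03). Acaa2, the thiolase that ends the cycle, had a log2 fold change of -1.08 (adjusted p = 9.60e-03), and Echs1, the enoyl-CoA hydratase, of -0.61 (adjusted p = 0.0249). Of the auxiliary enzymes for unsaturated fatty acids, the isomerase gene Eci1 (log2 fold change -0.78, adjusted p = 5.88e-03) and the reductase gene Decr1 (-0.67, adjusted p = 0.034) fell. The isomerase gene Eci2, whose product is found in mitochondria and peroxisomes, was not called, with 41.1, 66.4 and 64.6 CPM in the L/L, cre hearts and 78.3, 74.2 and 65.9 CPM in the L/L hearts (log2 fold change -0.35, SE 0.18, adjusted p = 0.151).

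The count of 11 fell when any 1 of the L/L hearts was left out. Without L/L heart 1, 7 of the 12 were called, since Acadm (-0.89, adjusted p = 0.0505), Echs1 (-0.49, adjusted p = 0.0925), Hadha (-0.66, adjusted p = 0.0671) and Decr1 (-0.63, adjusted p = 0.0956) passed no longer. It was 8 without L/L heart 2, and 10 without L/L heart 3 or L/L, cre heart 2. Decr1 was also lost without L/L heart 2 (-0.65, adjusted p = 0.0915) and L/L heart 3 (-0.74, adjusted p = 0.0549). Over all tested genes the share called lower fell too, from 17.8% to 14.1%, 12.2% and 12.7% without L/L heart 1, 2 and 3. Leaving out L/L, cre heart 1 moved a size, and without it the log2 fold change of Decr1 was -0.43 (adjusted p = 0.0150).

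Electron transfer from the dehydrogenases to the respiratory chain was lower in all 3 genes (median log2 fold change -1.13), and in 1 of 3 on the scale of library size alone (median -0.44). Etfa, the alpha subunit of the electron transfer flavoprotein, had 50.2, 30.0 and 30.4 CPM in the L/L, cre hearts and 123, 151 and 184 CPM in the L/L hearts. All L/L, cre hearts were far below the L/L hearts, and here heart 1 was the highest of its group. The mean was 24.2% of the L/L mean (log2 fold change -2.04, SE 0.22, adjusted p = 1.45e-04; chr9:55454508-55512243). Etfb, the beta subunit, had 40.7, 56.1 and 57.7 CPM in the L/L, cre hearts and 93.1, 87.8 and 78.4 CPM in the L/L hearts (log2 fold change -0.75, SE 0.15, adjusted p = 3.88e-03). Etfdh, the oxidoreductase that passes the electrons to ubiquinone, had 104, 177 and 168 CPM in the L/L, cre hearts and 332, 348 and 300 CPM in the L/L hearts (log2 fold change -1.13, SE 0.19, adjusted p = 1.65e-03). For Etfb and Etfdh too the groups lay apart, with L/L, cre heart 1 at the bottom.

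Of the 5 genes that control the pathway or cleave acyl-CoA, 3 fell and Acot2 rose. Ucp3, a mitochondrial carrier of muscle whose level follows fatty acid supply, had 4.83, 12.4 and 11.7 CPM in the L/L, cre hearts and 34.1, 47.4 and 52.6 CPM in the L/L hearts. The mean was 21.6% of the L/L mean (log2 fold change -2.22, SE 0.31, adjusted p = 5.06e-04). Pdk4, the kinase that shuts off pyruvate dehydrogenase when fat is burned, had 314, 224 and 274 CPM in the L/L, cre hearts and 577, 682 and 898 CPM in the L/L hearts (log2 fold change -1.41, SE 0.20, adjusted p = 5.36e-04). In both genes no L/L, cre heart came near the lowest L/L heart.

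Mlycd removes malonyl-CoA, the inhibitor of the outer carnitine transferase, and it had 20.5, 32.2 and 33.9 CPM in the L/L, cre hearts and 39.5, 44.1 and 42.4 CPM in the L/L hearts (log2 fold change -0.54, SE 0.18, adjusted p = 0.0354). The call was lost without any 1 of the L/L hearts (-0.59, -0.50 and -0.54, adjusted p = 0.0626, 0.105 and 0.0826) and without L/L, cre heart 2 (-0.63, adjusted p = 0.0519). Without L/L, cre heart 1 it was -0.34 (adjusted p = 0.0274).

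Acot2 and Acot1 are neighbouring thioesterase genes on chromosome 12 (chr12:83987861-83993873 and chr12:84009490-84018371) that split long-chain acyl-CoA, Acot2 inside mitochondria and Acot1 in the cytosol. Acot2 had 42.3, 66.4 and 79.1 CPM in the L/L, cre hearts and 24.7, 36.6 and 29.4 CPM in the L/L hearts. Every L/L, cre heart was above every L/L heart, and the mean was 207% of the L/L mean (log2 fold change 1.05, SE 0.22, adjusted p = 5.22e-03). Without both L/L, cre heart 3 and L/L heart 1 it was 0.74 (adjusted p = 0.0509). Acot1 had 0.849, 3.19 and 3.14 CPM in the L/L, cre hearts and 3.61, 5.33 and 7.20 CPM in the L/L hearts, and was not called (log2 fold change -1.18, SE 0.44, adjusted p = 0.0577). DESeq2 called it lower (-1.18, adjusted p = 0.0195), as did the fit without L/L, cre heart 3 (-1.40, adjusted p = 0.0483). So did limma-voom (-1.35, adjusted p = 0.0474) and the authors' deposited table (-1.14, adjusted p = 0.0302). It was also called lower without the filter (-1.13, adjusted p = 9.85e-05) and with a replicate block (-1.27, adjusted p = 0.0135), but not in the other settings. The transcripts are 95.1% identical over 1274 bases, so the split of reads between them is uncertain. Their summed reads were 43.2, 69.6 and 82.2 CPM in the L/L, cre hearts and 28.3, 41.9 and 36.6 CPM in the L/L hearts.

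In all, 6 ratios between partner genes were compared within hearts, per kilobase of exon, with a two-sided exact permutation test over hearts. With 3 hearts a group the smallest p that the exact test can give is 0.1. Etfa to Etfb was 0.782, 0.339 and 0.334 in the L/L, cre hearts and 0.837, 1.09 and 1.49 in the L/L hearts, a difference in mean log2 ratio of -1.31. Acsl1 to the sum of the other 4 synthetases was 1.79, 3.43 and 3.52 in the L/L, cre hearts and 7.01, 8.04 and 7.22 in the L/L hearts (-1.41). Dgat1 to Dgat2 was 0.375, 0.236 and 0.231 in the L/L, cre hearts and 0.101, 0.0695 and 0.0709 in the L/L hearts (1.79). In these 3 ratios, as in Acot1 to Acot2 (-2.36), the groups did not overlap.

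Hadha to Hadhb, encoding the subunits of 1 protein, was 1.163, 1.176 and 1.218 in the L/L, cre hearts and 0.970, 1.038 and 1.018 in the L/L hearts. The difference in log2 ratio was small, 0.23, and the groups did not overlap. Cpt1a to Cpt1b was 0.665, 0.516 and 0.471 in the L/L, cre hearts and 0.423, 0.484 and 0.623 in the L/L hearts, where the groups overlapped. Its difference of 0.11 turned to -0.03 without L/L, cre heart 1 and to -0.01 without L/L heart 1. The exact p was 0.1 for 5 of the ratios (0.12 after Benjamini-Hochberg adjustment over the 6) and 0.6 for Cpt1a to Cpt1b.

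**Figure D3:**
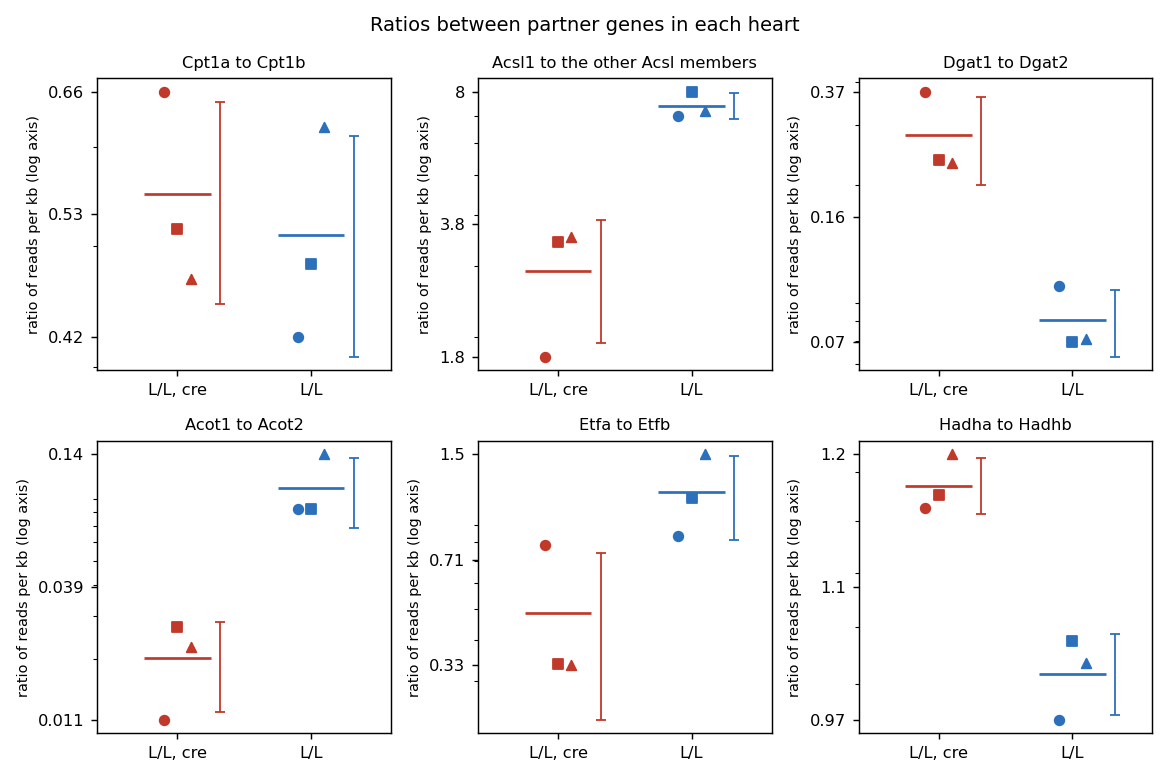
Ratio of reads per kilobase of exon between partner genes in each heart (y axis, log scale) for the L/L, cre hearts in red and the L/L hearts in blue, with the mean as a line and the SD as a bar; circles, squares and triangles are replicates 1, 2 and 3. The groups overlap for Cpt1a to Cpt1b and lie apart for the other 5 ratios.

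Per kilobase of exon, the order of the 40 genes was much alike at the top in both groups. Exon length here is the union of all annotated exons of a gene, 1516 bases for Acaa2 but 10478 for Lpl and 8730 for Hadha. Where that union is longer than the mRNA made, it lowers the rank of the gene, so the order between genes is rough. Fabp3 was first, with 996 ± 328 CPM per kb in the L/L, cre hearts and 1208 ± 99.8 CPM per kb in the L/L hearts (SD, n = 3 each). Cd36 was second, with 208 ± 45.2 CPM per kb in the L/L, cre hearts and 275 ± 41.3 CPM per kb in the L/L hearts. Acaa2 came next in both groups, at 113 ± 42.9 CPM per kb in the L/L, cre hearts and 238 ± 27.4 CPM per kb in the L/L hearts. Acsl6 was last in both. The genes with outlying fold changes moved most in this order: Acot2 was at rank 13 in the L/L, cre hearts and at rank 29 in the L/L hearts, Etfa at rank 18 in the L/L, cre hearts and at rank 9 in the L/L hearts, and Ucp3 at rank 35 in the L/L, cre hearts and at rank 27 in the L/L hearts. In the L/L hearts Acaa2 and the gene next in order, Pdk4 at 205 ± 46.6 CPM per kb, differed by less than the spread of Pdk4.

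The L/L, cre hearts were not alike. The median of the 40 genes, as log2 of CPM over the L/L mean, was -1.24 in L/L, cre heart 1 and -0.72 in each of the other 2. In the L/L hearts it was -0.01, 0.05 and -0.06. L/L, cre heart 1 was the lowest of its group in 34 of the 40 genes, against 42.7% of all tested genes, and the highest in 5, namely Pnpla2, Acsl4, Acsl5, Etfa and Pdk4. By the median over the genes of each role, the gap was widest in electron transfer (-1.60, -0.89 and -0.96) and in beta-oxidation (-1.29, -0.64 and -0.72). The synthetases gave -0.19, -0.20 and -0.30. The electron transfer medians are of Etfa in heart 1 and of Etfdh in the other 2. Etfa itself was highest in heart 1 (-1.60, -2.35 and -2.33), while Etfdh gave -1.65, -0.89 and -0.96. Without L/L, cre heart 1, 29 of the 40 were again called lower, 3 were called higher, and the median log2 fold change was -0.75.

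**Figure D4:**
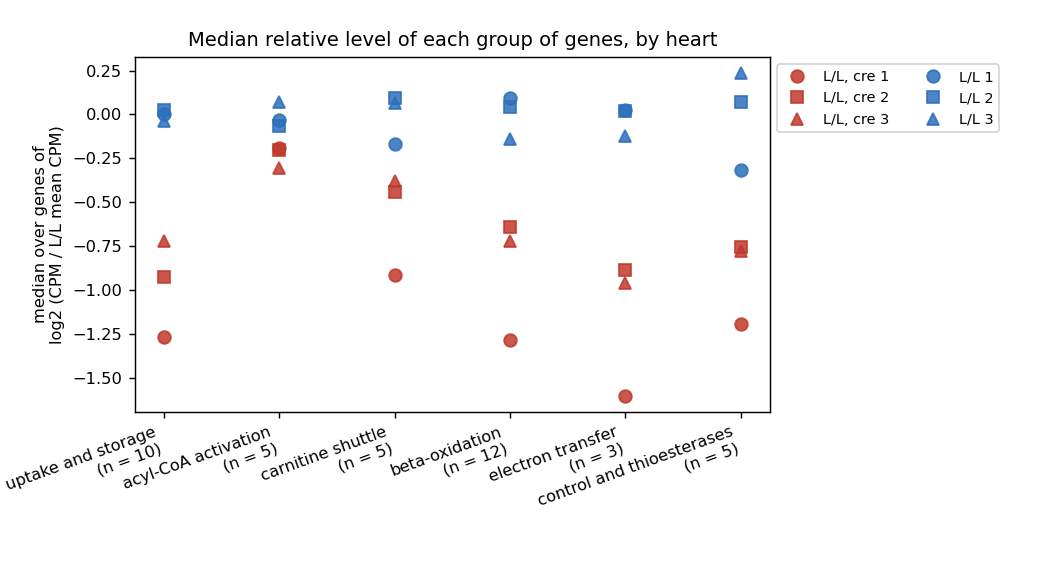
Median over the genes of each role of log2 of CPM over the L/L mean CPM (y axis) in each heart, with L/L, cre hearts in red and L/L hearts in blue; n is the number of genes. L/L, cre heart 1 is the lowest in every role but acyl-CoA activation, where all 6 hearts lie between -0.30 and 0.07.

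Markers of the cells in the samples moved with these genes in part. Of 10 cardiomyocyte markers 4 were called lower (Myh6, Ryr2, Pln and Actc1) and 0 higher. Their median log2 fold change was -0.39, and -0.22 without L/L, cre heart 1. Their summed level was 21871 to 24514 CPM in the L/L, cre hearts and 42650 to 43592 CPM in the L/L hearts. Of these sums Myh6 alone held 7348 to 8177 CPM in the L/L, cre hearts and 18402 to 20235 CPM in the L/L hearts. The sum thus follows a few abundant genes, and 6 of the 10 markers were not called. On the scale of library size alone this median turned to 0.30 and that of the endothelial markers to 0.38. Of 10 endothelial markers 5 were called lower, or 2 to 6 with 1 heart left out, and their summed level was 538 to 594 CPM in the L/L, cre hearts and 724 to 803 CPM in the L/L hearts. Of 8 fibroblast markers 0 were called, or 1 lower and 2 higher without L/L, cre heart 1, and 7 were called higher on the scale of library size alone. Col3a1 came close (log2 fold change 0.62, adjusted p = 0.0518). DESeq2, limma-voom, the robust fit, the replicate block and the authors' deposited table called it higher. Without L/L, cre heart 3, Col3a1 and Col1a2 were called higher, and without L/L heart 3 Dpt was called lower. The 8 fibroblast markers summed to 1581 to 2571 CPM in the L/L, cre hearts, with heart 1 the highest, and to 1091 to 1673 CPM in the L/L hearts. The 8 macrophage markers gave 0 calls as well, or 6 higher on the scale of library size alone. On that scale 56.6% of all tested genes were called higher and 3.86% lower. Skeletal muscle markers summed to at most 2.44 CPM in any heart. The 5 smooth muscle markers summed to 152 to 199 CPM in the L/L, cre hearts and to 334 to 408 CPM in the L/L hearts, with Acta2 lower (log2 fold change -1.65) and Cnn1 higher (1.41). The 5 atrial markers summed to 3374 to 4845 CPM in the L/L, cre hearts and to 347 to 1469 CPM in the L/L hearts, and the 1 called was Nppa, higher by 2.58 on the log2 scale. The other 4 had negative log2 fold changes, and the median of the 5 was -0.34. That median turned to 0.12 without L/L heart 3 and to 0.35 on the scale of library size alone. The 5 erythroid markers had a median of 0.81, or 0.47 without L/L, cre heart 3 and 0.50 without L/L heart 1. The 1 called was Alas2, higher (adjusted p = 0.0467), and its call was lost without L/L, cre heart 2 or 3 or L/L heart 1 or 2. The part of cell makeup in the fall of the 40 genes was not tested.

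Further genes of the same pathways, listed by name, show how far the pattern went. Other genes of mitochondrial fatty acid and propionyl-CoA oxidation were lower in 20 of 30 tested cases and higher in 1, with a median log2 fold change of -0.96. With library size alone as the scale 6 of the 30 were lower and 9 higher, with a median of -0.27. Of all tested genes 3.86% were called lower and 56.6% higher on that scale, which applies to the lists that follow too. Acacb, which makes the malonyl-CoA that holds back the outer carnitine transferase, fell (log2 fold change -1.38, adjusted p = 1.28e-04). So did Pcca (-1.43) and Pccb (-1.001), the subunits of propionyl-CoA carboxylase, and the thioesterase gene Acot7 (-1.38). Slc25a20, the carnitine carrier between the 2 transferase steps, had a log2 fold change of -0.86 (adjusted p = 8.40e-03). The gene that rose was Acot9, a further mitochondrial thioesterase, with 54.6, 48.9 and 39.5 CPM in the L/L, cre hearts and 18.1, 16.4 and 11.8 CPM in the L/L hearts (log2 fold change 1.62, SE 0.18, adjusted p = 1.44e-04).

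Other uptake and storage genes were lower in 10 of 30 tested cases and higher in 2, with a median of -0.14. Leaving out 1 heart moved that median to between -0.24 (without L/L, cre heart 3) and -0.04 (without L/L, cre heart 1; -0.07 without L/L heart 1). On the scale of library size alone 3 were lower and 15 higher and the median turned to 0.57. Fitm1 and Fitm2, which help bud lipid droplets from the endoplasmic reticulum, both fell, Fitm1 with 4.51, 7.37 and 7.33 CPM in the L/L, cre hearts and 41.5, 43.1 and 32.3 CPM in the L/L hearts (log2 fold change -2.62, SE 0.20, adjusted p = 2.07e-05) and Fitm2 with a log2 fold change of -1.17. Lpin1, a phosphatidate phosphatase, fell by 1.87 on the log2 scale, the lipoprotein receptor gene Vldlr by 0.88 and the lipase maturation gene Lmf1 by 0.96. The higher genes were Abhd5, the activator of ATGL (0.60), and Hilpda, its inhibitor (0.89). Without L/L, cre heart 2 neither was called (adjusted p = 0.076 and 0.0939). The call of Abhd5 was also lost without L/L, cre heart 3 or L/L heart 2 or 3, and that of Hilpda without any 1 of the L/L hearts or with DESeq2 (adjusted p = 0.0843).

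Regulators were lower in 9 of 17 cases and higher in 1, with a median of -0.65. Scaled by library size alone, 4 were lower and 5 higher, and the median turned to 0.06. Ppara had 12.8, 19.0 and 21.3 CPM in the L/L, cre hearts and 49.4, 50.8 and 54.8 CPM in the L/L hearts (log2 fold change -1.55, SE 0.17, adjusted p = 1.63e-04). Klf15, a transcription factor that acts with PPARα in heart, fell by 1.47, the coactivator Ppargc1b by 1.22 and the nuclear receptor Esrrb by 0.83. The related receptor genes Esrra (0.0033, adjusted p = 0.99) and Esrrg (-0.14, adjusted p = 0.395) were not called. The kinase subunit Prkaa2 fell by 0.65. Prkaa1, its sister subunit, rose by 0.49 (adjusted p = 0.0276), a call lost without L/L heart 1 (0.45, adjusted p = 0.084), L/L heart 3 (0.40, adjusted p = 0.0853), L/L, cre heart 2 (0.46, adjusted p = 0.0863) or L/L, cre heart 3 (0.44, adjusted p = 0.0719).

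Peroxisomal oxidation genes were lower in 6 of 19 tested cases, or in 3 without L/L heart 2, with a median of -0.29, or -0.19 without L/L, cre heart 1. Scaled by library size alone, 1 was lower and 8 higher, and the median turned to 0.39. The transporter gene Abcd3 (-0.60), the phytanoyl-CoA hydroxylase gene Phyh (-0.97) and Nudt7, a coenzyme A hydrolase (-0.73, adjusted p = 0.0181, and 0.061 without L/L heart 2), fell. Acox2, the oxidase of branched-chain and bile acid intermediates, was detected in the L/L, cre hearts only, with 101, 147 and 105 reads (5.36, 8.54 and 8.45 CPM) and 0 reads in each L/L heart. Against a floor of 3 reads over the L/L group, 0.0971 CPM, it was at least 76.7-fold higher in the L/L, cre hearts.

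**Figure D5:**
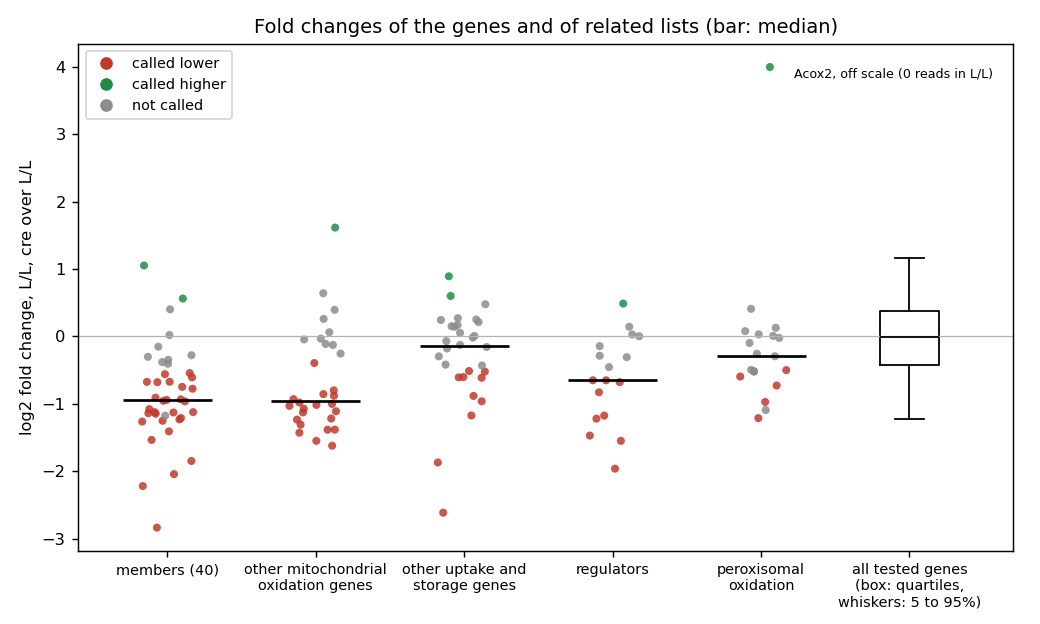
Log2 fold change, L/L, cre over L/L (y axis), of each tested gene in the 40 and in 4 related lists, with the median as a bar, beside the quartiles and the 5 to 95% range of all tested genes. The medians of the 40 and of other mitochondrial oxidation genes, -0.94 and -0.96, lie lowest. On the scale of library size alone those 2 medians are -0.26 and -0.27, and the medians of the uptake, regulator and peroxisomal lists turn positive (0.57, 0.06 and 0.39).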

How the data were processed

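For each of 6 heart libraries the authors deposited a table of raw counts, whole numbers of reads per gene. The submitters' processing notes name the mm10 build and, as tools, DESeq2 1.16.1, featureCounts 1.5.1, HISAT2 2.0.5 and SAMtools 1.5. Their deposited DESeq2 table gives log2 fold changes and adjusted p-values, which served here as an alternative; the deposited normalised values were not used. Technical runs of each mouse were already joined in 1 column, and replicate libraries differed by far more than sampling noise.

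The counts were tested over all genes with edgeR 4.0.16 (R 4.3.3): TMM scaling, filterByExpr with a minimum count of 10, glmQLFTest of L/L, cre against L/L with no block, and Benjamini-Hochberg adjustment. The script was tested on simulated counts. The SE is the size of the log2 fold change over the square root of F. Positions and exon lengths are from GENCODE M21 (GRCm38, the same build as mm10), promoters from RefSeq GRCm38.p6. Exon lengths are unions of all exons annotated to a gene. Near-identical transcripts were sought with blastn. Alternatives were other scalings, filters, tests (DESeq2 1.42.0, limma-voom from limma 3.58.1), thresholds, a replicate block, and hearts left out in turn; leaving out L/L, cre heart 3 with L/L heart 1, and adding the reads of Gm13910 to Hadhb, were chosen after seeing the data.

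Named are Elac2, all 40 genes, and from each related list up to 5 called genes with the smallest adjusted p, of which 1 is not reported here; Slc25a20, Abhd5, Hilpda, Prkaa1 and single markers were picked with their values in view. The 40 genes and all lists were chosen with earlier results of these data known.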

Additional observations from a re-analysis of the deposited data

How the results depend on the processing

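Depth limits Acsl6 and Acot1 most, and with 3 mice a group small changes can be missed. The choice of scale mattered more than any other. With library size alone 7 of the 40 genes were called lower and 5 higher with a median of -0.26, and over all genes 552 were lower and 8093 higher. Signs then turned for Cd36 (0.28), Fabp3 (0.41), Pnpla2 (0.037), Acsl4 (0.55), Slc22a5 (0.12), Cpt1a (0.41), Cpt1b (0.31), Echs1 (0.066), Hadha (0.017), Eci2 (0.34), Decr1 (0.0086) and Mlycd (0.16). Under the other scalings, filters and tests, 28 to 30 were lower and 2 higher. At an adjusted p under 0.01, 22 were lower and 1 higher (1415 and 1591 of all genes), and with an absolute log2 fold change of at least 1, 16 and 1 (1040 and 898 of all genes). The sign of Acsl3, near 0 throughout, turned with the stricter filter (-0.0093), limma-voom (-3.20e-04), without L/L, cre heart 3 (-0.076), without L/L heart 2 (-0.025) and without both L/L, cre heart 3 and L/L heart 1 (-0.068).

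With 1 heart left out, 23 to 30 of the 40 genes were lower, 1 to 3 higher, and the median ran from -1.04 to -0.75; over all genes 1795 to 2934 were lower and 1899 to 2903 higher. Without both L/L, cre heart 3 and L/L heart 1, 25 were lower and 1 higher (1710 and 1970 of all genes). The partner ratios ran from -2.62 to -1.99 (Acot1 to Acot2), -1.58 to -1.09 (Acsl1 to the others), -0.03 to 0.27 (Cpt1a to Cpt1b), 1.56 to 1.96 (Dgat1 to Dgat2), -1.72 to -1.10 (Etfa to Etfb) and 0.20 to 0.25 (Hadha to Hadhb). Cpt1a to Cpt1b turned without L/L, cre heart 1 (-0.030) and without L/L heart 1 (-0.012). By the authors' deposited table, lower calls numbered 29, with Acot1 in place of Slc22a5, and higher calls 2.

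The labels do not pair mice. With the replicate number as a replicate block 28 were lower and 2 higher, and Slc22a5 (adjusted p = 0.0602) and Echs1 (0.0555) were lost while Acot1 (0.0135) was gained. Same-numbered hearts correlated at -0.234, 0.102 and -0.118 in their deviations from the group means. The cause of these differences was not tested.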
